A study of Mus musculus with 24 samples.

Results

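Cytochrome P450 enzymes are heme proteins that insert oxygen into small molecules. Families 1 to 3 are best known for the oxidation of drugs, pollutants, steroids and bile acids in hepatocytes, and family 4 for the oxidation of fatty acids and leukotrienes. Hepatocytes carry most of these enzymes in the body, many of them more strongly around the central vein than around the portal tract, and several are induced through nuclear receptors such as PXR, CAR and PPARα or through the aryl hydrocarbon receptor. The genes were chosen by symbol, as those of families 1 to 4. This gave 81 of the 21960 genes in the deposited table, all of them found in the GENCODE M21 annotation, 80 as protein-coding genes and Cyp2d37-ps as a pseudogene. They sit largely in clusters of related genes, with 18 on chromosome 4, 15 on chromosome 7, 14 on chromosome 19, 10 on chromosome 5 and 9 each on chromosomes 15 and 17.

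RNA was measured in extracellular vesicles of plasma, the membrane-bound particles that cells shed into blood. The animals were male C57BL/6J mice, an inbred strain with no transgene or deletion named in the labels. The bile duct was ligated, which blocks bile flow, or a sham operation was done, and blood was drawn 8 or 15 days later. The 4 groups were ligated and sham mice at day 8 and ligated and sham mice at day 15, with 6 animals and 6 libraries each. Vesicles were precipitated from EDTA plasma with a polymer reagent, so what came down can include RNA that is not inside vesicles. In the labels the tissue is given as liver and the site as extracellular vesicles.

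The promoters of 5 genes are shown here because the results turn on them. Cyp3a11, Cyp2a5, Cyp2e1 and Cyp2f2 carried much of the P450 signal of ligated mice, and Cyp1b1 stood at about the same level in ligated and sham mice. Each is the 300 bases from 250 before to 50 after the annotated start, 5′ to 3′ on the gene's strand, from RefSeq on GRCm38.p6. They lie at chr5:145879805-145880104 on the minus strand for Cyp3a11, chr7:26835089-26835388 on the plus strand for Cyp2a5, chr7:140763569-140763868 on the plus strand for Cyp2e1, chr7:27119705-27120004 on the plus strand for Cyp2f2 and chr17:79715012-79715311 on the minus strand for Cyp1b1. Capitals mark AGGTCA, the core motif that many nuclear receptors bind, and the TATA box letters TATAAA, on either strand.
Cyp3a11: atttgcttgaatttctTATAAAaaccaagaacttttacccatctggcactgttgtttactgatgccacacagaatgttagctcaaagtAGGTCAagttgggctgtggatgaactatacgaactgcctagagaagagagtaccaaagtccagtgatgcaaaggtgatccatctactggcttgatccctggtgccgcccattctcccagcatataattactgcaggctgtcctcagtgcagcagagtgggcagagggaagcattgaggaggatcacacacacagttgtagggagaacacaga
Cyp2a5: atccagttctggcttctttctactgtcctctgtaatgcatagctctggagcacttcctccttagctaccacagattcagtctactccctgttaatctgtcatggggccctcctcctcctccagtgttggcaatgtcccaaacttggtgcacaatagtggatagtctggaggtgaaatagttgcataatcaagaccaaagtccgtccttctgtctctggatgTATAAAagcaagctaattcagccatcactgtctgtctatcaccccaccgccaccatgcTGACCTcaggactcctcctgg
Cyp2e1: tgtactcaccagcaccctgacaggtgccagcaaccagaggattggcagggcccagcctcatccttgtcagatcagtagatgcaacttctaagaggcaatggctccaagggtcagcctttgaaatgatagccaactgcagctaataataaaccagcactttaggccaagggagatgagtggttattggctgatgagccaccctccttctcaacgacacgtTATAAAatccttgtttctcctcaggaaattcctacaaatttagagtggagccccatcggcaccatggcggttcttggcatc
Cyp2f2: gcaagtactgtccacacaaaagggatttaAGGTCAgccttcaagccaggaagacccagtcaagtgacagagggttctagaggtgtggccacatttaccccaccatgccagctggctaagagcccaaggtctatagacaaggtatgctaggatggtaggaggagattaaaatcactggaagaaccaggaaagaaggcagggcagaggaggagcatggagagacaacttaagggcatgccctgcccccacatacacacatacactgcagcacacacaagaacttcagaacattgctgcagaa
Cyp1b1: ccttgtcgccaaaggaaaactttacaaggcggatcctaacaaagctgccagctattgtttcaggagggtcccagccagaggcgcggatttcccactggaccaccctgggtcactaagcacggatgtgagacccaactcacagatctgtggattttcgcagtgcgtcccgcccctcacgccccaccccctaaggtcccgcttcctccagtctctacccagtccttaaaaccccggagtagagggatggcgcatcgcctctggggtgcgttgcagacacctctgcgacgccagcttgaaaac
AGGTCA was present once in each of the windows of Cyp3a11, Cyp2a5 and Cyp2f2, and TATAAA once in each of those of Cyp3a11, Cyp2a5 and Cyp2e1. Neither was present in that of Cyp1b1. Of the 72 windows of the 65 P450 genes with a promoter entry, 19 held AGGTCA and 28 held TATAAA. Of all 32851 windows, 16.3% and 13.6% held them. Both strands were searched, and matches of different motifs may overlap. TTGCNNAA, the palindrome of C/EBP factors, was present in 19 of the 72 windows and in 10.8% of all windows. GTTAAT, part of the HNF1 motif, was present in 10 of the 72 and in 7.1% of all. Such letters are a description of the windows only.

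Total counts ran from 167939 to 937963 in ligated and from 101733 to 824640 in sham libraries at day 8, and from 315404 to 465744 in ligated and from 157133 to 351201 in sham libraries at day 15. Levels are given as CPM, the counts of a gene scaled to a library of 1000000 counts. At this depth 3 counts over a group, the floor used here for a gene with no count, equal 0.983 CPM in ligated and 1.10 CPM in sham mice at day 8, and 1.36 CPM in ligated and 2.01 CPM in sham mice at day 15. Genes that mark hepatocytes were checked first, since the tissue label names liver. All 16 of the hepatocyte markers had counts in both ligated groups and 13 of 16 in both sham groups, with Apoh, Ambp and Fgb at 0 in sham mice at day 8 and Hpd, Apoc3 and Fgg at 0 in sham mice at day 15. Their summed share of counts was 0.0369% to 0.376% in ligated and 0.00411% to 0.0138% in sham libraries at day 8, and 0.274% to 2.04% in ligated and 0.00807% to 0.0169% in sham libraries at day 15. The groups did not overlap on either day. In such bulk samples, fewer or more vesicles of a cell type, less or more RNA per vesicle and a changed transcript level in the cell cannot be told apart.

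A single library stood apart in another way. Ligated animal 5 of day 8 held 196 counts of 5 lung epithelium markers, 166 of them from Scgb1a1, the club cell secretory protein, against 0 to 3 counts in every other library. Its hepatocyte share, 0.0369%, was the lowest of its group. Where it carries a P450 value of day 8, the value without it is given beside it.

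The P450 genes together took a larger share of vesicle RNA after ligation. At day 15 they held 0.0743% ± 0.0701 of counts in ligated mice and 0.00842% ± 0.00312 in sham mice (SD, n = 6 each). The ligated libraries ran from 0.0268% over a median of 0.0535% to 0.214%, and the sham libraries from 0.00545% over 0.00772% to 0.0135%, without overlap. At day 8 the means were 0.0161% ± 0.00992 in ligated and 0.00654% ± 0.00314 in sham mice (SD, n = 6 each). There the ligated libraries ran from 0.00768% over 0.0127% to 0.0332% and the sham libraries from 0.00326% over 0.00584% to 0.0107%, so the groups overlapped. No p is given for these sums, because the genes were chosen with earlier results of these data known.

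Over whole groups the sums were 1802 counts in ligated and 120 in sham mice at day 15, a ratio of 10.1 per count sequenced (exact 95% interval 8.42 to 12.3), and 448 and 145 at day 8, a ratio of 2.76 (2.28 to 3.35). These intervals cover counting error only, not the spread between animals. Ligated animal 5 alone held 995 of the 1802 counts of day 15, or 55.2%. Without it the group held 807 counts and the ratio was 5.75 (4.74 to 7.02). At day 8 ligated animal 5, the library with lung transcripts, held 147 of the 448 counts, and without it the ratio was 2.37 (1.94 to 2.91).

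**Figure D1:**
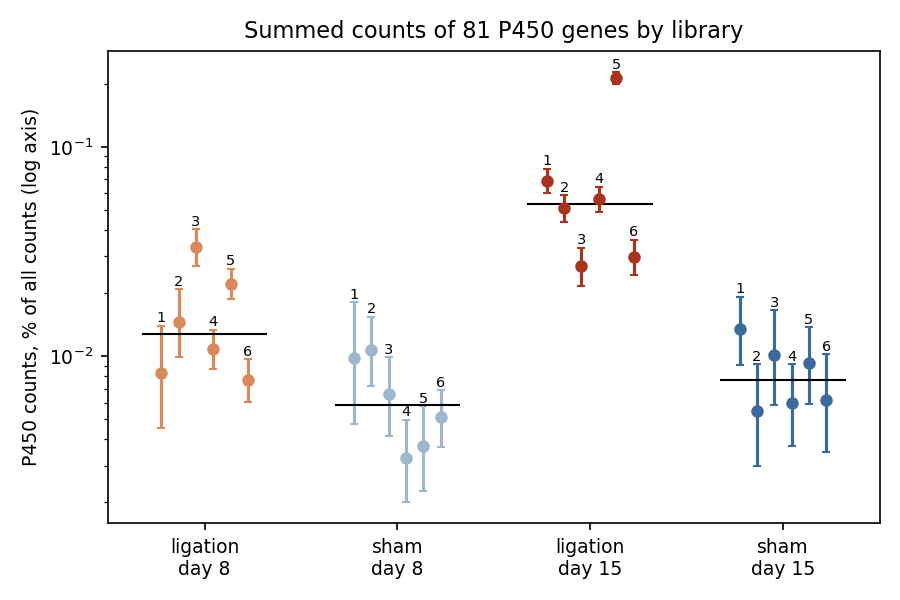
Summed counts of the 81 P450 genes as a percentage of all counts of a library (log axis), 1 point per animal with its exact 95% binomial interval, numbers giving the animal within its group and black lines the group medians. At day 15 all 6 ligated libraries, from 0.0268% to 0.214%, lie above the highest sham library at 0.0135%, while at day 8 the ligated and sham points overlap.

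In ligated mice the P450 counts were spread over many of the genes. Of the 81 genes, 60 had at least 1 count in ligated and 16 in sham mice at day 15, and 44 and 30 at day 8. Single libraries held counts of 26 to 41 P450 genes in ligated and 6 to 11 in sham mice at day 15, and of 8 to 29 in ligated and 5 to 21 in sham mice at day 8. Of all genes, they held 11483 to 13991 in ligated and 9389 to 11076 in sham mice at day 15. At day 8 these numbers were 9373 to 12575 and 8339 to 12171. The pooled level at day 15 was higher in ligated mice for 57 of the 61 genes with a count in either group, 45 of which had no count in sham mice, and lower for 4. At day 8 it was higher for 38 of 46 genes and lower for 8. The share of all genes that were higher or had no sham count is not given here. Detection also depends on depth, and at day 15 the ligated group held 2209399 counts and the sham group 1490102. Counts of most genes were small: 29 genes reached 10 counts in ligated and 6 in sham mice at day 15, and 12 in ligated and 3 in sham mice at day 8.

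**Figure D2:**
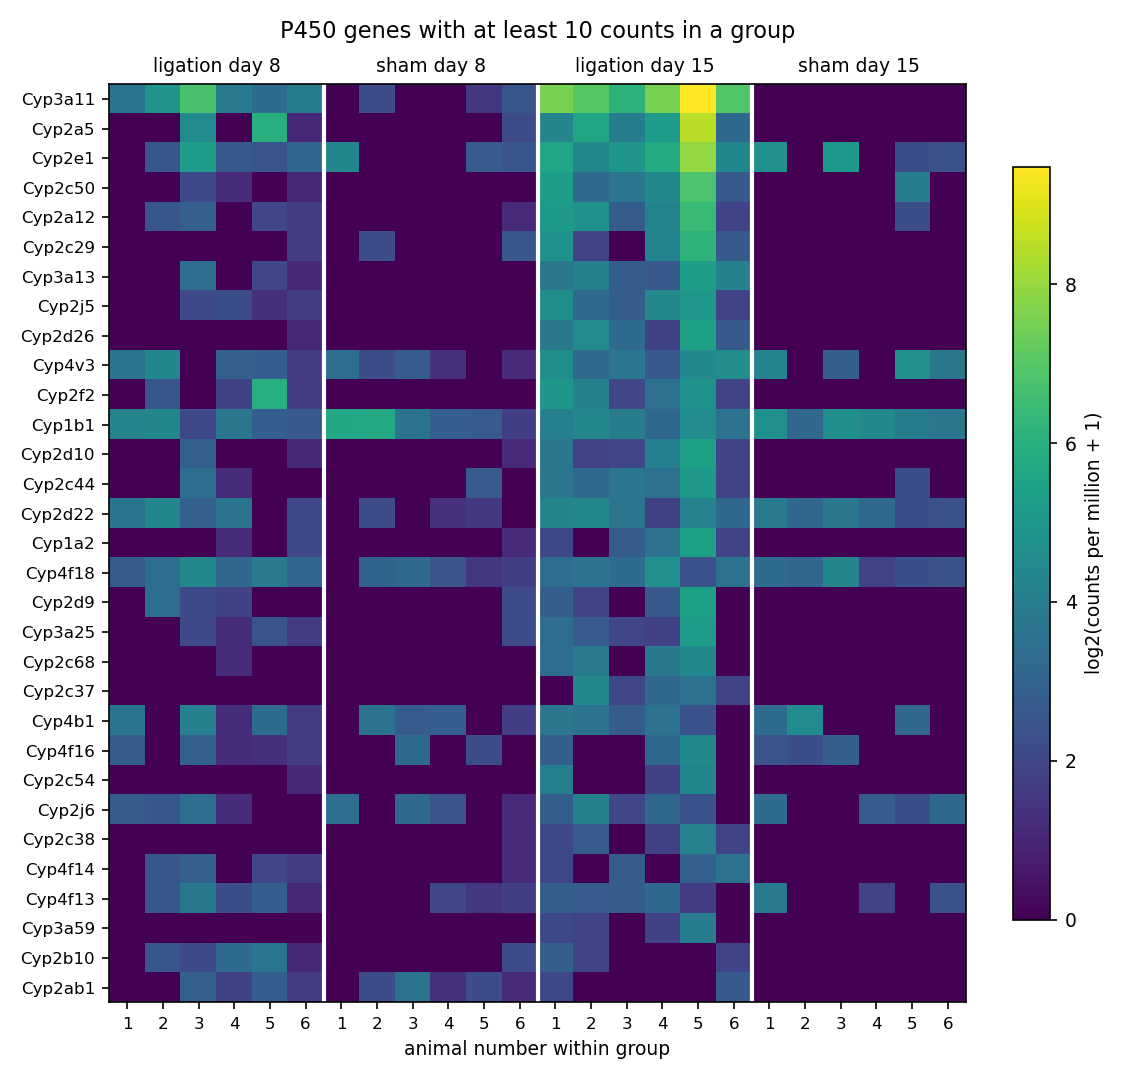
Level of the 31 P450 genes with at least 10 counts in a group (rows, ordered by counts in ligated mice at day 15), as log2 of CPM plus 1 (colour), in each of the 24 libraries (columns, animals numbered within a group). Most rows are dark in the sham libraries and bright in all or most ligated libraries of day 15, brightest in animal 5, while Cyp1b1, Cyp4f18 and Cyp4v3 are lit in both sham and ligated libraries.

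Of these genes, only Cyp3a11 and Cyp2e1 had enough counts to pass the expression filter of the test across all genes, which kept 4112 genes. With edgeR's quasi-likelihood test, 2 of 2 were called higher after ligation at day 15, where 3.48% of all tested genes were, and 1 of 2 at day 8, where 2.77% were. Both were called over the mean of the days, where 7.1% of all tested genes were called higher. Cyp3a11 could have passed the filter through the ligated libraries of day 15 alone. Cyp2e1 needed libraries of other groups too, with 19.8 and 19.2 CPM in ligated animals 2 and 6 of day 15. With no filter, a setting under which genes of very few counts are tested too, 18 of the 65 P450 genes with a count were called higher at day 15 against 2.96% of 18710 genes, and 3 of 65 at day 8 against 1.41%. Of those 18, the 12 that were called with any 1 library left out were Cyp3a11, Cyp2a5, Cyp2e1, Cyp2a12, Cyp2c29, Cyp2c50, Cyp2f2, Cyp3a13, Cyp2j5, Cyp2d26, Cyp2d10 and Cyp2c68, and the other 6 were not called without ligated animal 5. None was called lower, against 0.722% of all genes at day 15 and 0.187% at day 8. Over the mean of both days 14 were called higher, against 4.37%, and 10 without ligated animal 5 of day 15, when 5 of the 14 were lost.

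A ranking that does not use a count model gave fewer genes. Among genes with at least 10 counts in the groups compared, all 6 ligated libraries lay above all 6 sham libraries at day 15 for 7 of 31 P450 genes, against 2.02% of all such genes. These were Cyp3a11, Cyp2a5, Cyp2d26, Cyp3a13, Cyp2j5, Cyp2f2 and Cyp2d10, and in each of them every sham library was at 0. At day 8 this held for 1 of 16, Cyp3a11, against 0.55% of all such genes. An exact permutation test over the 6 ligated and 6 sham libraries (two-sided, smallest possible p 0.00216) called none of them and 0.0% of all genes after Benjamini-Hochberg adjustment, with smallest adjusted p of 0.0758 at day 15 and 0.123 at day 8. Unadjusted, 17 of 31 P450 genes at day 15 had an exact p below 0.05, against 15.9% of all such genes, and 4 of 16 at day 8, against 14.3%.

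The Cyp3a genes held the most counts of any subfamily in ligated mice. Mouse Cyp3a enzymes oxidise drugs, steroids and bile acids, and Cyp3a11 is the main hepatic member and a textbook target of PXR. The 9 genes summed to 647 counts in ligated mice at day 15 and 0 in sham mice, at least 146-fold higher against the floor of 3 counts over the group, or at least 77.5-fold without ligated animal 5. At day 8 they summed to 85 in ligated and 9 in sham mice, a ratio of 8.44 (exact 95% interval 4.24 to 19.1). Of those 9 sham counts, 7 came from animal 6, and the ratio without that library was 26.5, while without ligated animal 3 it was 5.29.

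Cyp3a11 (ENSMUSG00000056035, GRCm38 chr5:145854426-145879964, minus strand) had the most counts of any P450 gene in ligated mice on both days. At day 15 it had 60, 46, 23, 70, 332 and 43 counts in the 6 ligated libraries and 0 in each of the 6 sham libraries. Every ligated library was therefore above every sham library, with animal 5 far above the rest. The pooled level was at least 129-fold higher in ligated mice against the floor, and at least 68.9-fold higher without animal 5. The day 8 counts were 2, 6, 33, 11, 6 and 14 in ligated and 0, 1, 0, 0, 1 and 4 in sham libraries. In CPM the ligated libraries of day 8 again all lay above the sham libraries. The fitted change was 3.86 log2 units (SE 1.06, adjusted p = 0.0474, edgeR) at day 8 and had an adjusted p of 3.4e-05 at day 15, where a fitted fold has no meaning against a group at 0. The call of day 15 held with each library left out, whereas that of day 8 was lost in 8 of 12 such fits, with adjusted p up to 0.127 without ligated animal 3. In those 12 fits the change of day 8 ran from 2.736 log2 units without ligated animal 3 to 4.715 without sham animal 6.

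Cyp3a13, which is expressed in intestine and liver, and Cyp3a25, a hepatic and intestinal member, followed at lower levels. Cyp3a13 had 4, 6, 2, 2, 18 and 6 counts in the ligated libraries of day 15 and 0 in every sham library, at least 8.54-fold higher, or at least 5.70-fold without animal 5. Cyp3a25 had 24 counts in ligated and 0 in sham mice at day 15, 17 of them in animal 5, and Cyp3a59 had 10 and 0. At day 8 Cyp3a13 had 6 counts in ligated and 0 in sham mice, and Cyp3a25 had 7 and 3. Genes of this cluster are alike in sequence, so how reads were divided among them is uncertain. The 6 intestine markers checked summed to 88 counts in ligated and 4 in sham mice at day 15, and to 55 and 6 at day 8. The part of intestinal transcripts in the values of Cyp3a13 and Cyp3a25 was not tested.

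The Cyp2a genes came next in ligated mice at day 15, though without animal 5 the Cyp2c genes, with 112 counts, stood before them. The Cyp2a genes summed to 289 counts in ligated and 1 in sham mice at day 15. The ratio was 195, with an exact 95% interval from 34.7 to 7725. Without ligated animal 5 they summed to 79 and 1, a ratio of 67.5 (11.8 to 2700). Cyp2a5 (ENSMUSG00000005547, chr7:26835305-26843548, plus strand), the coumarin hydroxylase of mouse liver and airway, had 6, 17, 5, 14, 169 and 3 counts in the ligated libraries of day 15 and 0 in every sham library. All 6 ligated libraries were above all sham libraries, and the pooled level was at least 48.1-fold higher, or at least 12.8-fold without animal 5. Cyp2a12, which hydroxylates bile acids in mouse liver, had 11, 10, 2, 7, 39 and 1 counts in ligated and 0, 0, 0, 0, 1 and 0 in sham libraries, a ratio of 47.2 (8.20 to 1891), or 26.5 (4.42 to 1080) without ligated animal 5. Cyp2a22 had 4 counts and Cyp2a4, the close neighbour of Cyp2a5 in sequence, had 1 count in ligated mice at day 15, with 0 in sham mice for both.

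At day 8 Cyp2a5 had 0, 0, 7, 0, 41 and 1 counts in ligated and 0, 0, 0, 0, 0 and 3 in sham libraries. The 41 counts were in the library with lung transcripts. Over the group the sums were 49 in ligated and 3 in sham mice, a ratio of 14.6 (4.71 to 73.2), and without that library 8 and 3, a ratio of 3.04 (0.730 to 17.8).

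Cyp2f2 (ENSMUSG00000052974, chr7:27119909-27133660, plus strand) is known for the activation of naphthalene in airway club cells and is also made by periportal hepatocytes. At day 8 it had 0, 1, 0, 2, 40 and 2 counts in ligated and 0 in every sham library. Here too the high value was that of the library with lung transcripts: the ligated group was at least 13.4-fold higher than sham with it and at least 1.90-fold higher without it. At day 15 the counts were 10, 6, 1, 4, 13 and 1 in ligated and again 0 in every sham library, at least 7.87-fold higher. Lung markers were at 0 to 3 counts in those ligated libraries of day 15. Without a filter edgeR called both Cyp2a5 and Cyp2f2 at day 8, and neither without that library. The part of lung transcripts in the day 8 values was not tested.

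Cyp2e1 (ENSMUSG00000025479, chr7:140763739-140774987, plus strand), the ethanol- and acetaminophen-oxidising enzyme of pericentral hepatocytes, differed from Cyp3a11 in that sham libraries held it too. At day 15 it had 15, 7, 10, 21, 113 and 7 counts in ligated and 6, 0, 5, 0, 1 and 1 in sham libraries. In CPM the groups overlapped, with 3 of the 6 ligated libraries above the highest sham library. The fitted change was 3.17 log2 units (SE 0.81, adjusted p = 0.0176, edgeR). It was 2.08 without ligated animal 5 (adjusted p = 0.174), and DESeq2 gave 3.01 (adjusted p = 0.0696). The counts of day 8 were 0, 1, 11, 4, 3 and 7 in ligated and 2, 0, 0, 0, 3 and 4 in sham libraries. The fitted difference there was 1.61 (SE 1.09, adjusted p = 0.537, edgeR), or 0.775 without ligated animal 3 (adjusted p = 0.797).

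The Cyp2c genes encode liver epoxygenases and steroid hydroxylases. The 14 genes summed to 246 counts in ligated and 5 in sham mice at day 15, a ratio of 33.2 (14.0 to 103), and to 14 and 9 at day 8, a ratio of 1.39 (0.560 to 3.64) that was 2.18 without sham animal 6 and 0.992 without ligated animal 3. Without ligated animal 5 the ratio of day 15 was 19.1 (7.96 to 60.1). Cyp2c50 led, with 12, 3, 4, 8, 51 and 2 counts in ligated and 0, 0, 0, 0, 4 and 0 in sham libraries at day 15, a ratio of 13.5 (5.07 to 50.7), or 6.196 (2.18 to 24.3) without ligated animal 5. All of its sham counts lay in 1 library, that of animal 5. Cyp2c29, a CAR target, had 9, 1, 0, 7, 33 and 2 counts in ligated and 0 in every sham library, at least 11.7-fold higher, or at least 5.41-fold without ligated animal 5.

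Other Cyp2c genes were lower still. Cyp2c44 had 32 counts in ligated and 1 in sham mice at day 15, a ratio of 21.6 (3.61 to 879), or 13.7 (2.12 to 573) without ligated animal 5. Cyp2c68, Cyp2c37, Cyp2c54 and Cyp2c38 had 23, 17, 15 and 13 counts in ligated mice and 0 in sham mice. At day 8 no Cyp2c gene had more than 4 counts in ligated or 5 in sham mice. Reads of these near-identical genes may have been divided differently by the authors' counting, so the subfamily sum is firmer than any 1 of them.

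Among the 1a genes, which the aryl hydrocarbon receptor controls, nearly all counts were of Cyp1a2. Cyp1a2, the caffeine-oxidising enzyme of pericentral hepatocytes, had 1, 0, 2, 4, 19 and 1 counts in ligated and 0 in every sham library at day 15. It was at least 6.07-fold higher over the group, and at least 2.28-fold higher without animal 5, which held 19 of the 27 counts. Cyp1a1, which is induced in many tissues, had 1 count in ligated and 0 in sham mice at day 15, and 0 in ligated and 1 in sham mice at day 8.

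The Cyp2d genes summed to 124 counts in ligated and 12 in sham mice at day 15, a ratio of 6.97 (3.85 to 13.9), and to 29 and 7 at day 8, a ratio of 3.70 (1.59 to 10.0). Without ligated animal 5 the ratio of day 15 was 4.13 (2.19 to 8.45), and without sham animal 6 that of day 8 was 6.02. Their members fell into different patterns. Cyp2d26 had 4, 8, 3, 1, 19 and 2 counts, and Cyp2d10 had 4, 1, 1, 6, 19 and 1, in the ligated libraries of day 15, with 0 in every sham library for both. Cyp2d9, a steroid hydroxylase of male mouse liver, had 24 counts in ligated mice, 19 of them in animal 5, and 0 in sham mice. Cyp2d22 was present in every sham library of day 15, with 6, 7, 4, 1, 8 and 3 counts in ligated and 3, 2, 2, 3, 1 and 1 in sham libraries, a ratio of 1.63 (0.807 to 3.51). At day 8 it had 20 counts in ligated and 3 in sham mice, a ratio of 5.95 (1.77 to 31.3).

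Cyp2j enzymes epoxidise arachidonic acid. Cyp2j5, the member of kidney and liver, had 8, 3, 2, 8, 15 and 1 counts in ligated and 0 in every sham library at day 15, at least 8.32-fold higher, and 7 and 0 counts at day 8, at least 2.08-fold higher. Cyp2j6, which is more widely expressed, had 14 counts in ligated and 7 in sham mice at day 15, a ratio of 1.35 (0.510 to 3.95) that was 0.918 without ligated animal 2, and 6 and 8 at day 8. The kidney markers checked summed to 19 counts in ligated and 24 in sham mice at day 15, and to 42 and 9 at day 8. Most of these counts were of Lrp2, with 12 in ligated animal 6 of day 15 and 38 in ligated animal 4 of day 8. Kap and Slc34a1 had 0 in every library.

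Cyp2b10, the textbook target of CAR and a lung transcript as well, had more counts at day 8 than at day 15 in ligated mice. At day 8 it had 0, 1, 1, 7, 8 and 1 counts in ligated and 0, 0, 0, 0, 0 and 3 in sham libraries, a ratio of 5.36 (1.56 to 28.4). The ligated group ran over into the sham range, and without the library with lung transcripts the sums were 10 and 3, a ratio of 3.80 (0.978 to 21.5). At day 15 it had 4 counts in ligated and 0 in sham mice. The 5 genes listed as CAR or PXR targets, Cyp2b10, Cyp2c55, Cyp3a11, Cyp2a5 and Cyp2c29, together had 848 counts in ligated and 0 in sham mice at day 15, and 142 and 17 at day 8. Ligated animal 5 held 535 of the 848, which left 313 without it, and the library with lung transcripts held 55 of the 142, which left 87.

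A smaller set of genes made up the P450 signal of sham mice and differed less between groups. Cyp1b1, which metabolises estrogens and is made mostly outside hepatocytes, had the most counts of them in sham mice on both days, though per length Cyp4f18 stood above it there, and Cyp2e1 too at day 15. It had 5, 7, 5, 3, 11 and 4 counts in ligated and 6, 2, 4, 7, 4 and 3 in sham libraries at day 15, a ratio of 0.908 (0.531 to 1.57) that was 1.004 without sham animal 1. Its day 8 sums were 27 counts in ligated and 32 in sham mice, a ratio of 0.754 (0.434 to 1.30) that was 1.21 without sham animal 2, which held 14 of the 32. Both intervals over all 6 animals include 1, and the direction turned with 1 library left out on each day.

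Genes of family 4 were part of the sham signal too. Cyp4b1, known best from lung, had 16 counts in ligated and 10 in sham mice at day 15, a ratio of 1.08 (0.460 to 2.66) that was 2.23 without sham animal 2 and 0.825 without sham animal 4, and 16 and 11 at day 8, a ratio of 1.30 (0.566 to 3.10), or 0.992 without ligated animal 3. Cyp4v3, a fatty acid hydroxylase whose human counterpart is mutated in a retinal dystrophy, had 36 and 15 at day 15, a ratio of 1.62 (0.864 to 3.18) that was 2.51 without sham animal 5, and 17 and 6 at day 8, a ratio of 2.53 (0.952 to 7.84). The intervals over all 6 animals include 1 for both genes on both days.

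The Cyp4f genes, which inactivate leukotrienes and oxidise fatty acids, had more counts in ligated mice on both days. They summed to 67 counts in ligated and 20 in sham mice at day 15, a ratio of 2.26 (1.35 to 3.93), and to 63 and 23 at day 8, a ratio of 2.45 (1.496 to 4.13). Cyp4f18, the leukotriene hydroxylase of mouse neutrophils, had 3, 4, 3, 10, 2 and 4 counts in ligated and 2, 2, 3, 1, 1 and 1 in sham libraries at day 15. On day 8 the counts were 1, 2, 6, 6, 9 and 7 in ligated and 0, 2, 3, 3, 1 and 2 in sham libraries. The ratios were 1.75 (0.818 to 4.08) at day 15 and 2.52 (1.23 to 5.55) at day 8, and the libraries overlapped on both days. Neutrophil markers summed to 491 to 1610 CPM in ligated and 117 to 3998 CPM in sham libraries at day 15, and to 705 to 2037 CPM in ligated and 127 to 1415 CPM in sham libraries at day 8. Their part in the Cyp4f18 values was not tested. Cyp4f13, Cyp4f14 and Cyp4f16 had 10, 10 and 15 counts in ligated and 5, 0 and 3 in sham mice at day 15.

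**Figure D3:**
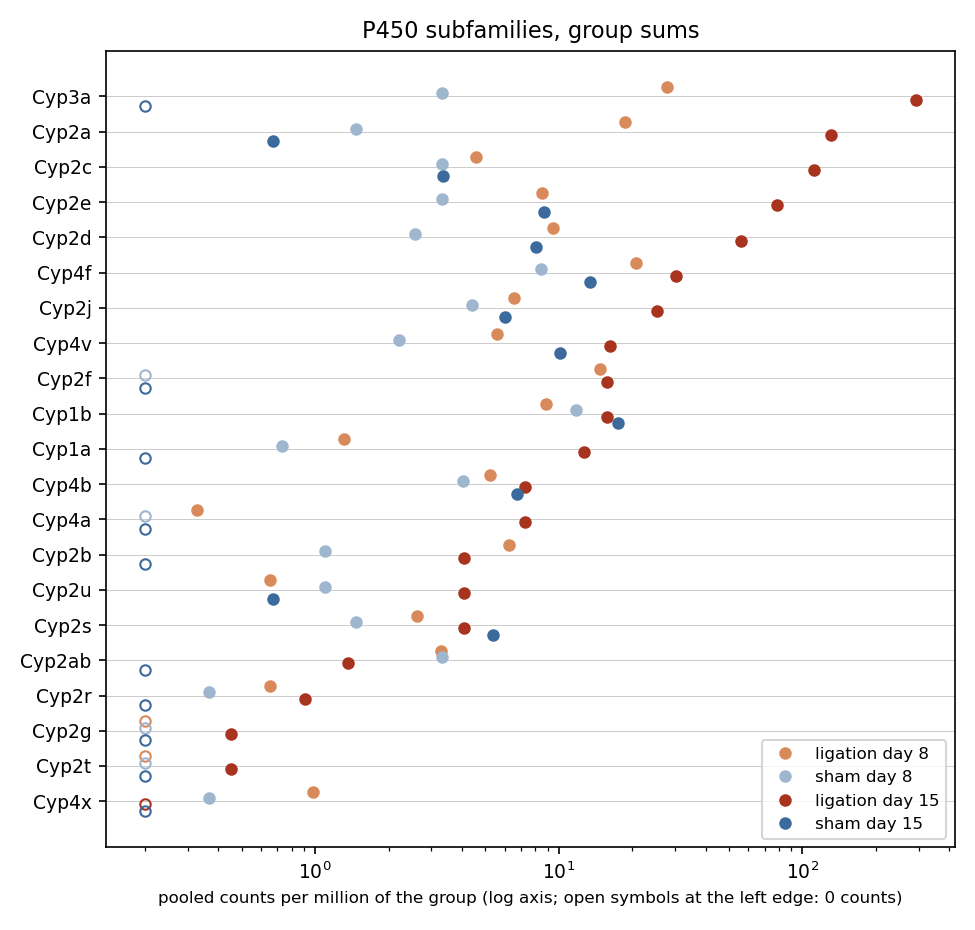
Pooled CPM of each P450 subfamily (rows, ordered by ligated mice at day 15) in the 4 groups (log axis, 1 point per group, no error drawn), with open points at the left edge for groups with 0 counts. Cyp3a, Cyp2a and Cyp2c lie far to the right in ligated mice at day 15, whereas the 4 points of Cyp1b and those of Cyp4b lie close together.

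The Cyp4a genes, fatty acid hydroxylases of which 4 are PPARα targets, were near the limit of detection. They summed to 16 counts in ligated and 0 in sham mice at day 15, at least 3.60-fold higher, or at least 2.36-fold without ligated animal 1, and to 1 and 0 at day 8. The 4 PPARα targets, Cyp4a10, Cyp4a14, Cyp4a31 and Cyp4a32, had 12 of those 16 counts. Genes with a bias between the sexes in mouse liver were compared in these male mice: the 3 male-biased genes Cyp2d9, Cyp4a12a and Cyp4a12b had 28 counts and the 9 female-biased genes had 6 in ligated mice at day 15, with 0 in sham mice for both lists. Of the 28 counts, 19 were of Cyp2d9 in ligated animal 5, and without that library the lists held 9 and 5 counts.

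Of the genes not named so far, those with a count had fewer than 10 in every group. Cyp2s1, which is expressed in epithelia, had 9 counts in ligated and 8 in sham mice at day 15, and Cyp2u1, a fatty acid hydroxylase, had 9 and 1. Cyp2ab1 was the exception, with 3 and 0 counts at day 15 and 10 and 9 at day 8, a ratio of 0.992 (0.362 to 2.76) that was 1.56 without sham animal 3. Altogether 34 genes had fewer than 10 counts in every group, and 16 had none in any library. The 16 were Cyp2c66, Cyp2c69, Cyp2d11, Cyp2d12, Cyp2d37-ps, Cyp2j7, Cyp2j8, Cyp2j12, Cyp2w1, Cyp3a16, Cyp3a41a, Cyp3a41b, Cyp3a44, Cyp4a29, Cyp4a30b and Cyp4f39. Of these, Cyp3a16, Cyp3a41a, Cyp3a41b, Cyp3a44 and Cyp2c69 are among the female-biased genes. A gene with no count was not detectable at this depth.

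On a scale per gene length, pooled CPM per kilobase of annotated exons, Cyp3a11 stood at 51.0 in ligated mice at day 15, Cyp2a5 at 46.7 and Cyp2e1 at 36.3. The next genes were Cyp2c50 at 12.4, Cyp2d26 at 9.35 and Cyp2a12 at 9.17. In ligated mice at day 8 the order was Cyp2a5 at 7.74, Cyp2f2 at 7.28, Cyp4f18 at 5.47, Cyp3a11 at 4.63 and Cyp2e1 at 3.95. Both leading values of day 8 rest on the library with lung transcripts: without it Cyp3a11 led at 5.42, before Cyp4f18 at 4.96 and Cyp2e1 at 4.46, and Cyp2a5 stood at 1.61. At day 15 the values without ligated animal 5 were 27.25 for Cyp3a11, 15.95 for Cyp2e1 and 12.45 for Cyp2a5. In sham mice Cyp4f18 stood at 3.62, Cyp1b1 at 2.99 and Cyp2e1 at 4.04 at day 15, and at 2.18, 2.01 and 1.53 at day 8.

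Within ligated mice the P450 sum was higher at day 15 than at day 8, with 1802 counts at day 15 and 448 at day 8, a ratio of 5.56 (5.01 to 6.18) per count sequenced, or 3.15 (2.81 to 3.55) without ligated animal 5 of day 15. Both tested genes were called higher at day 15, where 2.26% of all tested genes were. Cyp3a11 rose by 2.97 log2 units (SE 0.64, adjusted p = 0.0130, edgeR) and Cyp2e1 by 2.94 (SE 0.73, adjusted p = 0.0217, edgeR). The call of Cyp3a11 was lost without ligated animal 5 of day 15 (2.17, adjusted p = 0.0551), and that of Cyp2e1 in 4 of 12 fits with a library left out, with adjusted p up to 0.221. Subfamilies moved unequally, as Cyp2c had a day 15 to day 8 ratio of 24.3 (14.2 to 45.1), Cyp3a 10.5 (8.38 to 13.4), Cyp2a 7.01 (5.26 to 9.48), Cyp4f 1.47 (1.03 to 2.11) and Cyp2f2 1.08 (0.671 to 1.71). Several of these ratios rest on 1 library. Without ligated animal 5 of day 15 that of Cyp2c was 14.0 (8.01 to 26.4), that of Cyp3a 5.602 (4.376 to 7.235) and that of Cyp2a 2.43 (1.70 to 3.47). Without the day 8 library with lung transcripts, Cyp2a had a ratio of 22.3 (13.1 to 41.4) and Cyp2f2 one of 7.58 (2.96 to 24.8). Without ligated animal 3 of day 8, Cyp3a had 16.8. With no filter edgeR called 16 of 65 P450 genes higher at day 15, against 2.01% of all genes, and 7 of them in every fit with a library left out. The number was 7 without ligated animal 5 of day 15, and 10 without ligated animal 4 or 5 of day 8. Cyp2d26 and Cyp2c50 were the 2 of 33 genes whose ligated libraries of day 15 all lay above those of day 8, against 0.977% of all genes with at least 10 counts.

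The difference between the days in the effect of ligation was tested directly. For Cyp3a11 it was 5.83 log2 units (SE 2.84, adjusted p = 0.841, edgeR) and for Cyp2e1 1.56 (SE 1.60, adjusted p = 0.995). Neither was called, where 0.0% of all tested genes were. At an unadjusted p below 0.05 edgeR counted 0 of the 2 and 234 of 4112 genes, and DESeq2 1 of the 2 and 227 of 4112 genes. After adjustment DESeq2 called 0 of the 2 and 1 gene in all. With no filter edgeR called Cyp3a11 and Cyp2c29, against 0.118% of all genes, and lost both without sham animal 6 of day 8 or ligated animal 5 of day 15. In sham mice neither gene was called between day 15 and day 8 by edgeR or DESeq2, with unadjusted p of 0.293 for Cyp3a11 and 0.268 for Cyp2e1, and 0.0% of all tested genes were called by edgeR (439 of 4112 at an unadjusted p below 0.05).

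The make-up of the P450 counts also differed among ligated animals. At day 15 Cyp3a11 made up 25.6% to 39.5% of a library's P450 counts and the Cyp2c genes 8.26% to 16.5%. At day 8 Cyp3a11 made up 4.08% to 32.7% and the Cyp2c genes 0% to 5.56%. Cyp1b1 took 1.11% to 5.62% at day 15 and 0.990% to 21.4% at day 8. Ligated animal 3 of day 8, with 32.7% Cyp3a11 and a hepatocyte share of 0.376%, had the highest value of both among the ligated libraries of that day. In animal 5 of day 8, Cyp2a5 and Cyp2f2 took 27.9% and 27.2%, against 0% to 6.93% and 0% to 3.33% in the other libraries of that group.

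**Figure D4:**
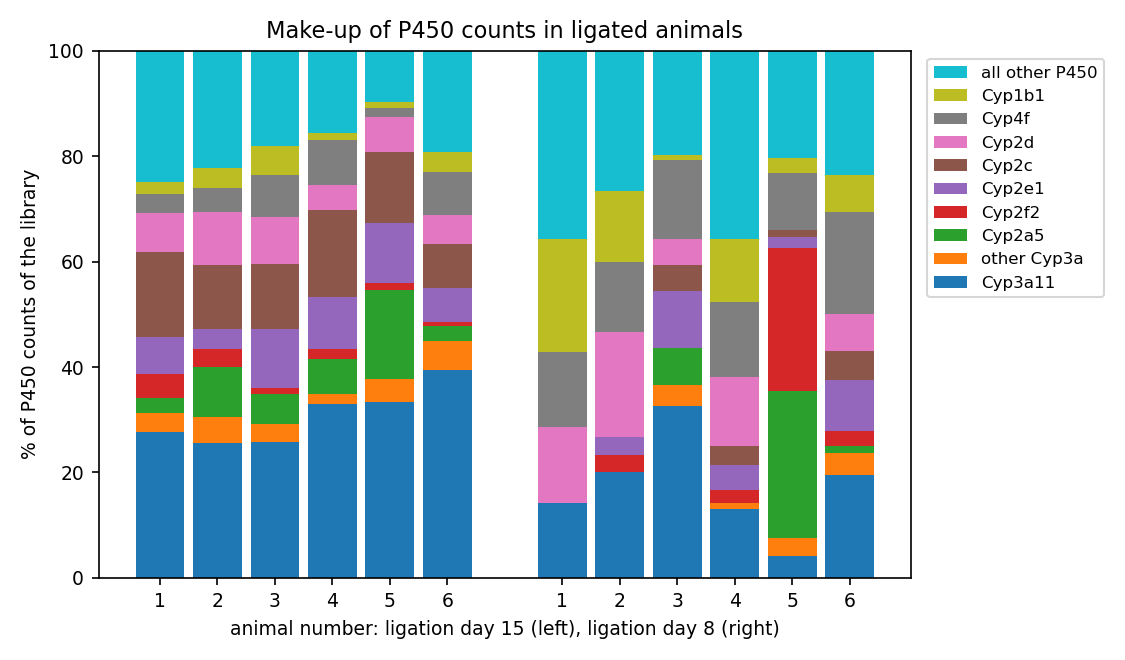
Stacked shares of each ligated library's P450 counts (vertical axis, percent) by gene or subfamily, 1 bar per animal, with day 15 left and day 8 right. The bars of day 15 are alike, with Cyp3a11 at 25.6% to 39.5%, while those of day 8 vary, and animal 5 of day 8 stands out by Cyp2a5 and Cyp2f2.

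Set against hepatocyte transcripts of the same library, the summed P450 counts were not higher in ligated mice. Per 100 counts of the 16 hepatocyte markers there were 6.70 to 10.9 P450 counts in ligated and 36.6 to 167 in sham libraries at day 15, and 8.84 to 60.3 in ligated and 51.2 to 145 in sham libraries at day 8. The highest ligated value, 60.3, was that of the library with lung transcripts. Sham libraries held only 14 to 77 hepatocyte marker counts each. Cyp1b1 and the Cyp4f genes made up 1.94% and 3.72% of the P450 counts of ligated mice at day 15, against 21.7% and 16.7% of those of sham mice. Among ligated libraries, Cyp3a11 alone had 1.85 to 4.30 counts per 100 marker counts at day 15 and 1.40 to 4.00 at day 8. These ranges overlapped, although the share of Cyp3a11 in all counts was 11.02 times as high at day 15 (8.61 to 14.3), or 5.88 times (4.51 to 7.77) without ligated animal 5 of day 15 and 18.3 times without ligated animal 3 of day 8. Cyp2e1 had 0.289 to 1.19 counts per 100 marker counts in ligated and 0 to 35.7 in sham libraries at day 15, and over whole groups 0.853 and 7.60. Cyp3a11 went the other way at day 15, with 2.83 over the ligated and 0 over the sham group. At day 8 it had 2.41 and 3.02. Of the hepatocyte markers, 10 of 10 tested were called higher by edgeR after ligation at day 15, against 3.48% of all tested genes, and 10 of 10 at day 8, against 2.77%. In ligated mice 10 of 10 were called higher at day 15 over day 8, against 2.26%. These markers summed to 20285 counts in ligated and 171 in sham mice at day 15, so they could pass the filter through the ligated libraries. With each library left out in turn, all 10 were called at day 15, and at least 8 at day 8 and between the days. The part of the hepatocyte transcripts in the P450 values was not tested.

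**Figure D5:**
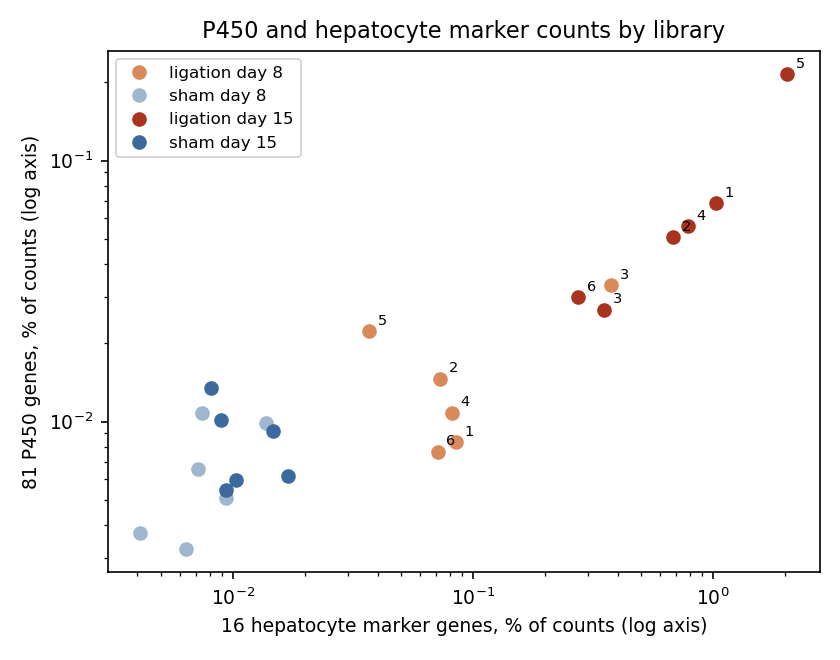
Share of the 81 P450 genes against the share of the 16 hepatocyte markers in each of the 24 libraries (both log axes, percent of all counts; numbers give the ligated animals). The ligated libraries of day 15 run along a line from 0.274% and 0.0299% in animal 6 to 2.04% and 0.214% in animal 5, and animal 5 of day 8 lies above the other libraries with a like hepatocyte share.

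The partners of P450 enzymes were compared as a list. They are the proteins that pass electrons to them, bind them or make their heme. Of the 9 genes 7 were tested, and 1 rose at day 15, where 3.48% of all tested genes did, and none at day 8, where 2.77% did. Pgrmc1, a heme-binding partner of P450 enzymes, had 21, 12, 10, 17, 89 and 13 counts in ligated and 4, 1, 2, 9, 5 and 3 in sham libraries at day 15. It rose by 2.32 log2 units (SE 0.53, adjusted p = 0.00718, edgeR), in ligated libraries that all exceeded the sham counts, but the call was lost without ligated animal 5 (1.60, adjusted p = 0.0590). Pgrmc1 could have passed the filter through the ligated libraries of day 15 alone. At day 8 edgeR and DESeq2 called 0 of the 7. Each counted 3 of the 7 at an unadjusted p below 0.05, against 588 and 563 of all 4112 tested genes. The median difference of the 7 was 0.44 at day 15 and 0.95 at day 8, beside -0.02 and 0.02 over all tested genes. Erythroid markers moved at day 8 as well, and red cell precursors make heme: edgeR called 7 of 7 tested higher at day 8, with a median of 1.08, and 0 of 7 at day 15, with a median of -0.03. Among the partners, Fech and Alas1, both enzymes of heme synthesis, had differences of 1.02 and 0.95 at day 8. The erythroid calls of day 8 fell to 2 without ligated animal 2. Their part in the values of the partners was not tested. Within ligated mice, Pgrmc1 and Cyb5r3, the reductase of cytochrome b5, rose at day 15 over day 8, by 1.77 (SE 0.47, adjusted p = 0.0326) and 0.92 (SE 0.18, adjusted p = 0.00312, edgeR), where 2.26% of all tested genes did. The call of Pgrmc1 was lost in 5 of 12 fits with a library left out, with adjusted p up to 0.221, and that of Cyb5r3 in 0. Por, the reductase that serves all microsomal P450 enzymes, did not pass the filter and had 15, 18, 13, 9, 56 and 11 counts in ligated and 1, 6, 3, 4, 2 and 5 in sham libraries at day 15.

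Of 26 regulators of P450 genes, 7 were tested and none was called by edgeR in either comparison of ligation with sham. At an unadjusted p below 0.05 edgeR counted 0 at day 15, against 743 of all 4112 tested genes, and 1 at day 8, against 588. DESeq2 called 0 of the 7 on both days. Hnf4a, the hepatocyte nuclear receptor, did not pass the filter, with 19, 13, 9, 17, 42 and 9 counts in ligated and 0 in every sham library at day 15, and 29 and 3 counts at day 8. The receptors of xenobiotics were scarce: Nr1i2, which encodes PXR, had 12 counts in ligated and 0 in sham mice at day 15, and Nr1i3, which encodes CAR, had 7 and 0. At day 8 Nr1i2 had 2 and 1 and Nr1i3 had 0 and 5 counts.

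P450 genes of both zones of the liver lobule were present. The 8 genes named as pericentral, Cyp2e1, Cyp1a2, Cyp2c29, Cyp2c37, Cyp2c50, Cyp2c54, Cyp2a5 and Cyp3a11, summed to 1152 counts in ligated and 17 in sham mice at day 15, and to 157 and 24 at day 8. Without ligated animal 5 they summed to 421 in ligated mice at day 15, and without the library with lung transcripts to 107 at day 8. The periportal gene Cyp2f2 had 35 counts in ligated and 0 in sham mice at day 15, or 22 and 0 without ligated animal 5. At day 8 it had 45 and 0, or 5 and 0 without the library with lung transcripts. Of 10 other periportal genes 2 were tested at day 15, and both rose, where 3.48% of all tested genes did: Cps1, of the urea cycle, by 6.22 (SE 1.008, adjusted p = 0.000146, edgeR) and Ass1, of the same cycle, by 3.95 (SE 0.58, adjusted p = 3.51e-05, edgeR). Cps1 had 353 counts in ligated and 3 in sham mice at day 15, and Ass1 had 468 and 21. Both genes could have passed the filter through the ligated libraries of day 15 alone, the group in which they were high. At day 8 neither was called. By edgeR or DESeq2 0 of the 2 had an unadjusted p below 0.05, against 588 and 563 of all 4112 tested genes. Of 10 other pericentral genes 3 were tested, and edgeR called 0 on either day, with 1 at an unadjusted p below 0.05 on each day. Of all 4112 tested genes, 743 had such a p at day 15 and 588 at day 8. DESeq2 called 0 of the 3 at day 15 and 1 at day 8, against 214 and 186 of all tested genes. These 3 include genes such as Glul that many other cell types express, with 327 counts of Glul in ligated and 230 in sham mice at day 15. Over the mean of both days edgeR called Aldh1a1 higher (0.82, SE 0.20, adjusted p = 0.00751), where 7.1% of all tested genes were. Gulo, Rgn and Lect2, not tested, had 20, 17 and 5 counts in ligated and 0 in sham mice at day 15. Ligated animal 5 held 14 of Gulo, 11 of Rgn and 4 of Lect2. The others, Slc1a2, Lgr5, Tbx3 and Axin2, had 9, 5, 25 and 11 in ligated and 3, 1, 14 and 12 in sham mice.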

How the data were processed

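RNA of plasma vesicles was measured in 24 libraries, 1 per animal, grouped by the sample titles; the treatment protocol text names ligation for sham samples too. Blood was taken by cardiac puncture and ExoQuick was used to precipitate the vesicles, per the labels' protocols. A stranded mRNA kit was used, its rRNA removal and poly(A) steps skipped, and PCR amplified the libraries, with no molecular identifiers named. Values in the deposited table are expected counts, all of them whole numbers, so they were used as they stand. Alignment and counting tools were STAR and RSEM, per the submitters' processing notes, which name the build hg38, while the identifiers are mouse genes. Not given in the sources used here: versions, the strand setting and the division of reads among alike genes. Positions come from GENCODE M21 on GRCm38 by identifier.

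Counts were filtered with filterByExpr (minimum count 10, total 15), normalised by TMM and tested in R 4.3.3 with edgeR 4.0.16 (quasi-likelihood, 1 mean per group, all 24 libraries, no covariate), with Benjamini-Hochberg adjustment over all 4112 tested genes and a threshold of 0.05. The p-values reflect the spread between these animals. The procedure was tested on simulated data. Group sums were compared per count sequenced, with exact 95% intervals (confidence level 95) of the ratio or, for a group at 0, a floor of 3 counts; shares have exact Clopper-Pearson intervals; all cover counting error only. Full values are given for genes that passed the filter, group sums for others with at least 10 counts in a group, and counts for the rest; per-library values of some of the others, the genes of few counts that are named, and Por, Hnf4a, Nr1i2, Nr1i3 and Glul were chosen after their values were seen. The genes, lists and rules were chosen with earlier results of these data known. 1 gene of these families is not reported here.

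Same-numbered ligated and sham libraries had correlated deviations from their group means at day 8 (r 0.165 to 0.327, 6 of 6 above 0.1). At day 15 they were less correlated (r -0.031 to 0.113, 1 of 6). At day 8, libraries 1 to 3 of both groups held 101733 to 349386 counts. Libraries 4 to 6 of both groups held 535737 to 937963 counts. The platelet gene Itga2b had 5 to 37 counts in the former and 353 to 1168 in the latter. Correlations of differently numbered libraries are not given here, so r cannot separate pairing by number from a split shared by both groups. Pairing of single libraries was not tested. Alternatives were RLE factors, DESeq2 1.42.0, no filter, leaving out Lars2 and hemoglobin genes, only the groups compared, a replicate block, each library left out, other denominators and, chosen after seeing the data, an exact permutation test, hepatocyte markers as denominator and sums without single libraries.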

Additional observations from a re-analysis of the deposited data

Results flagged for a closer look

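In each group of 6 libraries, the highest and lowest values of the summed P450 share and of every gene with at least 10 counts in the group were set against the nearest other value, and 19 of 54 groups had a library far from the rest. By chance about 1 in 20 groups would be marked in this way if the values were normally distributed. The rate for low counts such as these was not tested. The groups are also not independent, since many share the same library.

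Ligated animal 5 of day 15 accounted for 14 of the 19. Its summed P450 share was 0.214%, with the next library at 0.0688%. In CPM it had 713 of Cyp3a11 with the next library at 190, 363 of Cyp2a5 with the next at 48.0, 243 of Cyp2e1 with the next at 55.6, and 110 of Cyp2c50 with the next at 38.0. It also stood far above its group for Cyp1a2, Cyp2d9 and Cyp2d10 at 40.8 CPM each, Cyp3a13 at 38.6, Cyp3a25 at 36.5, Cyp2c44 at 34.4, Cyp4f16 at 21.5, Cyp2c38 at 17.2 and Cyp3a59 at 15.0 CPM. The same library had the highest hepatocyte marker share of its group, 2.04%, while its P450 counts per 100 hepatocyte marker counts, 10.5, lay within the 6.70 to 10.9 of the group. The part of these transcripts in the P450 values was not tested.

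At day 8, ligated animal 5, the library with 196 lung epithelium marker counts, had 62.0 CPM of Cyp2a5 with the next library at 23.0, and 60.5 CPM of Cyp2f2 with the next at 4.87. Ligated animal 3 of day 8 had 109 CPM of Cyp3a11 with the next library at 29.2 and 36.2 CPM of Cyp2e1 with the next at 7.46. Its hepatocyte marker share, 0.376%, was the highest of its group. At day 15, ligated animal 4 had 26.5 CPM of Cyp4f18 with the next library at 11.3, and 1240 CPM of the neutrophil markers, where the group ran from 491 to 1610.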

How the results depend on the processing

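Counts limit these results: only 2 P450 genes passed the filter, and 1 library held 55.2% of the ligated P450 counts of day 15. Cyp3a11 and Cyp2e1 kept the direction of each called change in every alternative fit that gave a value. Per 100 hepatocyte marker counts it turned for Cyp2e1 at day 15 (0.853 in ligated, 7.60 in sham mice) and between the days in ligated mice (0.853 at day 15, 0.872 at day 8), and for Cyp3a11 at day 8 (2.41 in ligated, 3.02 in sham mice). At day 8 the number of P450 genes called was 1 of 2, and became 0 with RLE factors (Cyp3a11 adjusted p = 0.0501, edgeR), 3 with no filter and 0 by the exact permutation test. At day 15 it was 2, and became 1 with DESeq2, 1 without Lars2 and hemoglobin genes, 1 with only the groups compared, 18 with no filter and 0 by the exact permutation test; without Lars2 and hemoglobin or with only the groups compared, Cyp2e1 no longer passed the filter. Over the mean of both days 2 became 1 without Lars2 and hemoglobin and 14 with no filter, and for the difference between days 0 became 2 with no filter. For ligated mice at day 15 against day 8, 2 became 1 with DESeq2, 1 without Lars2 and hemoglobin, 1 with only the groups compared and 16 with no filter. With each library left out in turn, calls ran from 0 to 1 at day 8, 1 to 2 at day 15, 1 to 2 over both days and 0 to 2 for ligated mice at day 15 against day 8, and stayed at 0 for the difference between days and for sham mice.

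The replicate block left the number called at 1 for day 8, 2 for day 15, 2 for the mean and 0 for the difference, and changed no call of a P450 gene; genes called in all at day 8 were 202 with the block and 129 without it. The log2 ratio of the mean summed share was 1.46 at day 8 and 3.34 at day 15, and ran from 1.24 to 1.74 and from 2.52 to 3.52 with a library left out. Per hepatocyte marker count, in place of all counts, it was -2.28 and -2.98; the denominator itself differed between the groups. Without Cyp3a11 it was 1.27 and 2.79. Genes called in all moved most with no filter, where 18710 genes were tested in place of 4112, to 298 from 129 at day 8, to 688 from 187 at day 15, to 1041 from 436 over the mean, to 51 from 0 for the difference, to 652 from 179 for ligated mice and to 150 from 0 for sham mice. At day 8 they were 84 with only the groups compared, 76 with libraries 1 to 3 and 31 with libraries 4 to 6; no P450 gene passed the filter in those 3 fits.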
